A study of Mus musculus with 3 samples.

Results

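The genes described here form the antioxidant and glutathione system: the NRF2 pathway and its target enzymes, thioredoxin, glutathione synthesis, superoxide dismutases, catalase, glutathione peroxidases, peroxiredoxins, metallothioneins and glutathione S-transferases. They were given as a list of 40 gene symbols by function, with no threshold on the values, and each gene is read from its brightest probe set by mean log2 signal. Of the 40 listed genes, 36 had a probe set annotated to that gene alone, out of 18193 such genes on the array. The 4 genes without such a probe set were Prdx1, whose 5 probe sets are annotated to Gm21399 as well, and G6pdx, Prdx5 and Prdx6, for which the probe annotation lists no probe set. All 36 measured genes had signals above the floor on all 3 arrays.

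The arrays carried RNA of mouse primary cultures of iris (IPE), retinal (RPE) and ciliary body (CBPE) pigment epithelium, 1 array for each culture, from C57BL/6 donors of 6 to 8 weeks. The medium was RPMI 1640 with 10% serum for IPE and CBPE but DMEM with 20% serum for RPE, so tissue and medium cannot be told apart for RPE. IPE and CBPE tissue was dissociated with Dispase and DNase I and the RPE eyecup with trypsin, and all cultures were kept without serum overnight before RNA was taken. The labels put cytokeratin-positive cells above 99% in IPE and above 95% in RPE and CBPE, and they give a culture time of 14 days for RPE and CBPE only.

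There are no replicate arrays, so no difference between cultures has a replicate check and no p-value is given. A difference was counted when it was at least 2-fold and at least 1 of the 2 signals stood above the floor, the median signal of that array's probe sets (14.5 in IPE, 16.8 in RPE and 17.3 in CBPE). As the sole measure of error, probe sets of the same gene were set against each other within a comparison. Only probe sets with signals above 100 on both arrays were used, so dimmer ones are not covered. The standard deviation of the disagreement between probe sets was 0.45 on the log2 scale for IPE minus RPE (1773 genes), 0.49 for IPE minus CBPE (1666 genes) and 0.29 for RPE minus CBPE (1693 genes). It covers probe error and not variation between cultures.

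Of 6 pigment epithelium markers 5, 5 and 4 were above the floor, and their summed signal was 1474 in IPE, 496 in RPE and 605.3 in CBPE. Among them Rpe65, the visual cycle isomerase of retinal pigment epithelium, was below the floor on all 3 arrays. Pax6, with 897.7, and Otx2, with 329.6, gave most of the IPE sum. Both, like Rlbp1, were highest on that array, whereas the keratin genes of this list were lowest there. Krt8 gave 17.4 for IPE, near the floor, against 26.2 for RPE and 95.3 for CBPE. Krt18 gave 144.1, 218.6 and 422.4 for the same arrays. The summed signal of 7 pigment cell markers was 4665 in IPE, 1553 in RPE and 586.3 in CBPE, with 6, 6 and 5 of them above the floor. The 10 macrophage and leukocyte markers summed to 360.4 in IPE, 526.6 in RPE and 2374 in CBPE, with 5, 6 and 8 above the floor. Fibroblast markers (8 of 8 above the floor on each array) summed to 26985 in IPE, 37896 in RPE and 47736 in CBPE, and glial markers (6, 5 and 5 of 8 above the floor) to 6693 in IPE, 1447 in RPE and 706.7 in CBPE. In IPE the glial sum was mainly Apoe, with 3950, and Glul, with 2558, while Gfap gave 17.1. Endothelial markers (5, 5 and 8 of 8 above the floor) summed to 1255 in IPE, 620 in RPE and 1904 in CBPE, and skeletal muscle markers (1, 6 and 4 of 8) to 77.2 in IPE, 1501 in RPE and 1468 in CBPE. Emcn, with 745.1, and Eng, with 362.3, gave most of the endothelial sum in IPE, where Pecam1, Cdh5 and Tek were below the floor. Myh2 gave most of the muscle sum, with 808.8 in RPE and 1363 in CBPE. By contrast, Acta1, Myl1, Mylpf, Tnnc2 and Tnnt3 were higher in RPE than in CBPE, as with Myl1 at 270.6 and 29. Of 4 erythroid markers 2 were measured and neither was above the floor on any array. The ratio of 3′ to 5′ Actb signal, which is higher in RNA that is shorter at its 5′ end, was 1.5 in IPE, 2.25 in RPE and 2.26 in CBPE. What part these markers and RNA quality had in the differences below was not tested, and a smaller number of cells of a type cannot be told apart from less RNA per cell.

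Cells keep reactive oxygen in check through linked reactions. Superoxide dismutases turn superoxide into hydrogen peroxide, which catalase, glutathione peroxidases and peroxiredoxins remove, and the glutathione and thioredoxin they oxidise are reduced again by NADPH-dependent reductases. Many of these enzymes are transcribed under NRF2, a transcription factor that KEAP1 marks for degradation until electrophiles or oxidants modify it, and that binds antioxidant response elements together with small MAF proteins. Ocular pigment epithelia hold melanin and are exposed to light, and antioxidant defence is a much studied property of the retinal pigment epithelium.

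Genes of this system differed in both directions between IPE and the other cultures, and fewer reached 2-fold between RPE and CBPE, as over all genes of the arrays. Between IPE and RPE, 4 of 36 genes were at least 2-fold higher in IPE (11.1%; 10.5% of all genes tested) and 6 were at least 2-fold lower (16.7%; 9.87% of all genes). Between IPE and CBPE, 7 were higher in IPE (19.4%; 12.5% of all genes) and 8 were lower (22.2%; 11.8% of all genes). Between RPE and CBPE, 1 was higher in RPE (2.78%; 3.75% of all genes) and 0 were lower (4.26% of all genes). The median log2 difference of the 36 genes was -0.12 for IPE minus RPE, -0.01 for IPE minus CBPE and 0.08 for RPE minus CBPE, beside -0.02, -0.04 and 0.00 over all genes. The first and the next comparison share the IPE array, so their calls are not separate evidence and the values of each are given side by side. IPE gave the highest of the 3 signals for 15 genes, RPE for 11 and CBPE for 10. Of the 36 genes, 16 reached 2-fold in at least 1 comparison and 20 stayed within 2-fold in all of them. These counts and those of the highest array were not made over all genes, so they describe the members only.

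**Figure D1:**
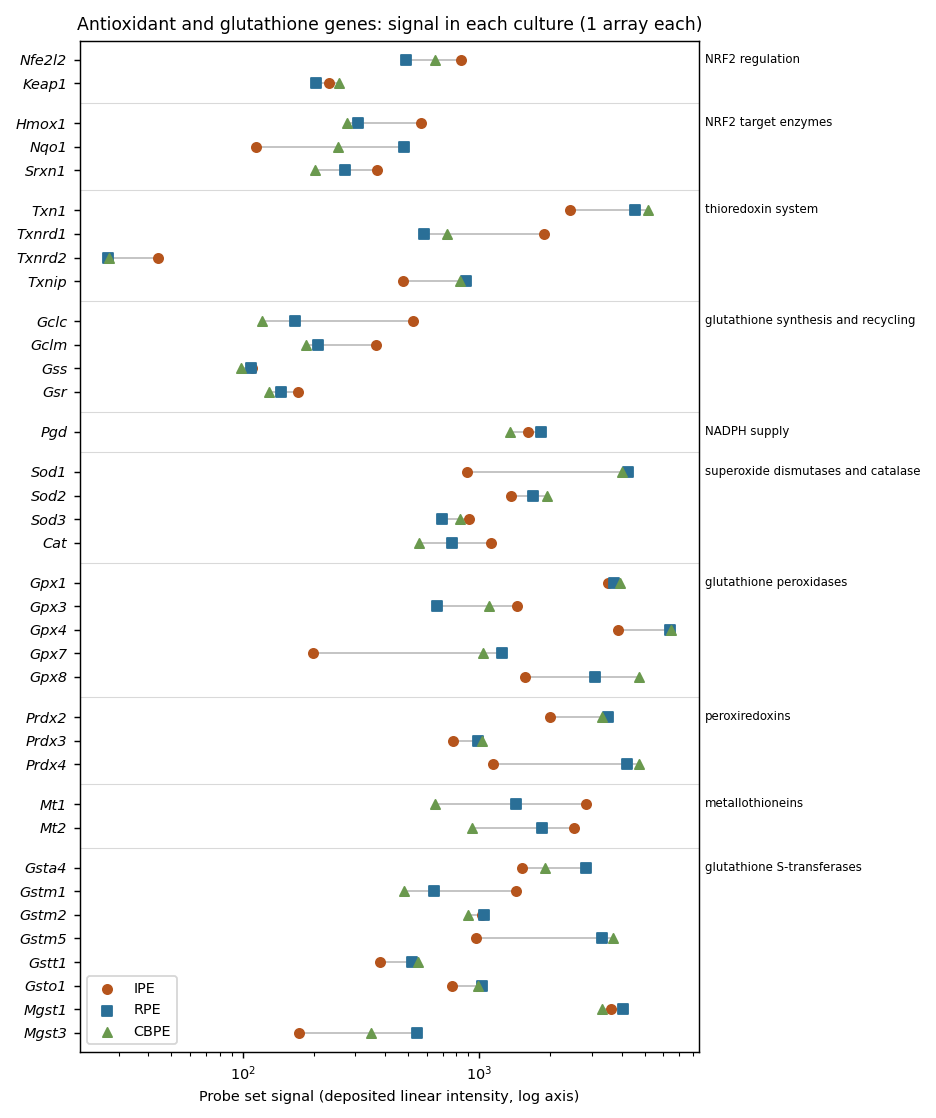
Signal of each of the 36 measured genes on the IPE, RPE and CBPE arrays (horizontal log axis, linear array units, 1 point per array), grouped by role. Gpx7, Nqo1, Sod1, Prdx4 and Gstm5 have the IPE point far to the left, while for Txnrd1 and Gclc it lies to the right of both other points.

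The scale of the arrays bears on the split between higher and lower genes. Bright genes ran lower on the IPE array as a whole: among the 911 genes with a mean signal of 1000 or more, the median log2 difference was -0.47 for IPE minus RPE and -0.59 for IPE minus CBPE, and 19.4% and 26.9% of them were at least 2-fold lower in IPE. Of the 36 genes, 15 lie in that range, with medians of -0.72 and -0.52, and 3 and 5 of these were at least 2-fold lower in IPE. For genes with a mean signal of 100 to 300 the median of all genes was 0.17 for IPE minus RPE and 0.21 for IPE minus CBPE. When the arrays were instead scaled to equal medians, the median over all genes shifted to -0.29, -0.43 and -0.12 in the 3 comparisons. The share of called members that were higher in IPE then fell to 15.4% against RPE (40% on the deposited scale) and to 26.7% against CBPE (46.7% on the deposited scale). The same share over all genes fell to 26.7% against RPE and 22% against CBPE, where it was 51.5% on the deposited scale in both.

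**Figure D2:**
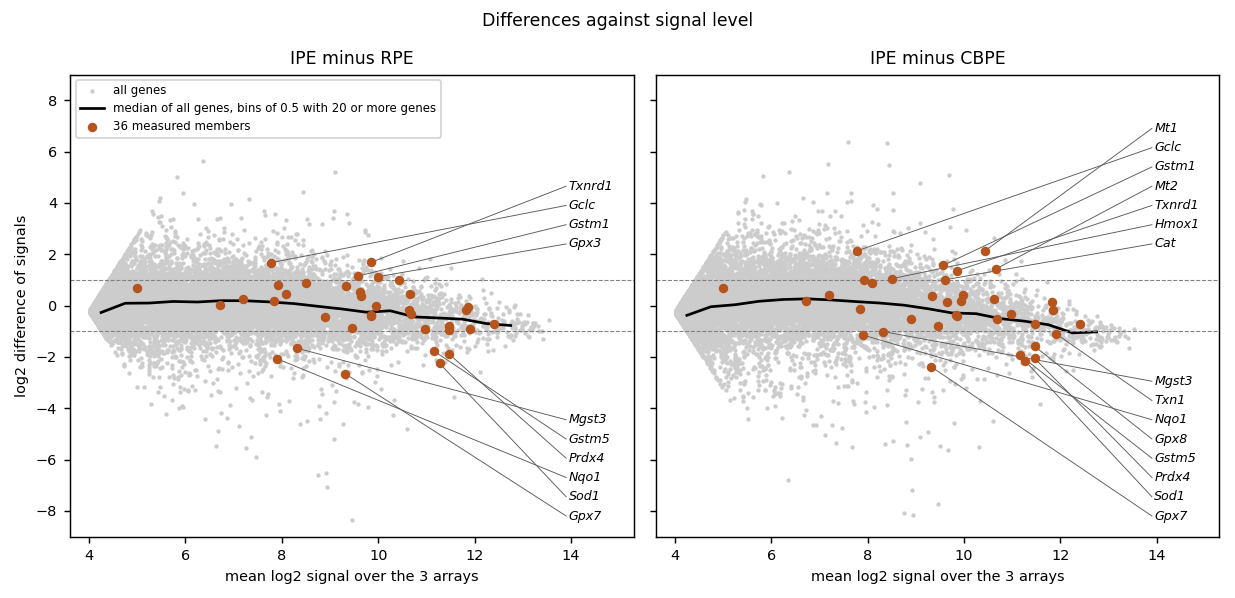
Log2 difference of each gene (vertical axis) against its mean log2 signal over the 3 arrays (horizontal axis) for IPE minus RPE and IPE minus CBPE, with all genes in grey, their running median as a black line, and the 36 genes as coloured points named where they reach 2-fold (dashed lines). The running median drops below 0 at high signals, where Prdx4, Sod1 and Gstm5 lie well under it and Mt1 and Mt2 above it in the CBPE panel.

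NRF2 itself and its adaptor changed less than 2-fold. Nfe2l2, which encodes NRF2, had a signal of 839 in IPE, 489.5 in RPE and 647.7 in CBPE. Keap1 had 232.2 in IPE, 203.6 in RPE and 256.1 in CBPE. Nfe2l2 had its highest signal in IPE on the deposited scale, but with equal medians its IPE minus CBPE log2 difference was -0.02, and Keap1 was nearly even.

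The 3 NRF2 target enzymes outside the glutathione and thioredoxin systems did not move together. Hmox1, heme oxygenase 1, which breaks heme down to biliverdin, iron and carbon monoxide, gave 569.9 in IPE, 308.2 in RPE and 275.6 in CBPE. It was 1.85-fold higher in IPE than in RPE and 2.07-fold higher than in CBPE. Nqo1, the quinone reductase often used to read out NRF2 activity, went the other way, with 113.8 in IPE, 479.1 in RPE and 252.3 in CBPE. It was 4.21-fold lower in IPE than in RPE and 2.22-fold lower than in CBPE. It stayed at least 2-fold lower under every alternative processing tried, of which only quantile normalization could have removed the call. Srxn1, sulfiredoxin, which repairs overoxidised peroxiredoxins, had 369.2 in IPE, 271.7 in RPE and 203.1 in CBPE by the probe set that represents it, under 2-fold in each comparison. Others of its probe sets differed more: 259.3 in IPE, 96.2 in RPE and 81.2 in CBPE (2.7-fold and 3.19-fold higher in IPE), and 155.3 in IPE, 57.2 in RPE and 37.9 in CBPE (2.72-fold and 4.1-fold higher). Its last probe set, near the floor, gave 25.6 in IPE, 5.1 in RPE and 24 in CBPE.

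Antioxidant response elements are the sites through which NRF2 acts, so the core TGACNNNGC was searched on both strands of the RefSeq promoter windows (GRCm38.p6, 250 bases before to 50 after each start). It occurred in 12.4% of 32851 windows and in 14% of 27025 genes. Of the 34 listed genes with a window, 11 held it (32.4%): Nfe2l2, Srxn1, Txnrd1, Gclm, G6pdx, Pgd, Sod1, Prdx1, Mt2, Gstm5 and Mgst1. Hmox1, Gclc, Gsr, Sod3, Prdx6 and Gsta4 had no window in the table. A match describes the letters only and is not a bound site. The following stretches of 120 bases are shown because their genes went in opposite directions in IPE although each holds the core: Txnrd1, Gclm and Mt2 had their highest signal in IPE, and Gstm5 and Sod1 their lowest. Capitals mark the core or its reverse complement, and all are written 5′ to 3′ on the plus strand.
Txnrd1 (chr10:82859058-82859177): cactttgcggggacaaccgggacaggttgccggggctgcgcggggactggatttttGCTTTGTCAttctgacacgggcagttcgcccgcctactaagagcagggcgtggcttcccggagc
Gclm (chr3:122245367-122245486): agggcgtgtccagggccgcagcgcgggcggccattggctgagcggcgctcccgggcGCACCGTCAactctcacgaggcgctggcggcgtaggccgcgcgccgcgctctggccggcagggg
Mt2 (chr8:94172483-94172602): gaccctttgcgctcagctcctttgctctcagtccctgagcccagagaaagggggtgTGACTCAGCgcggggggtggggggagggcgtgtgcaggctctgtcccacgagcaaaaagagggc
Gstm5 (chr3:107895734-107895853): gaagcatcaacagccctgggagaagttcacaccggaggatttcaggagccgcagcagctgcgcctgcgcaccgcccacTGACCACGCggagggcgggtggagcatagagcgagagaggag
Sod1 (chr16:90220642-90220761): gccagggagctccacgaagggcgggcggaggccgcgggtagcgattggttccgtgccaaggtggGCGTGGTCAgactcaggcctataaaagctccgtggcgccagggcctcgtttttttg
In Mt2 the core overlaps an AP-1 site (TGACTCA or TGAGTCA, in 5.2% of all windows), the site of JUN and FOS dimers. The same holds for Prdx1, and 4 of the 34 genes with a window held an AP-1 site (11.8%, against 5.95% of all genes).

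Of the 4 thioredoxin system genes, Txnrd1 reached 2-fold against both other cultures and Txn1 against CBPE. Txnrd1, the cytosolic thioredoxin reductase, a selenoprotein that passes electrons of NADPH to thioredoxin, had a signal of 1872 in IPE, 581.9 in RPE and 731.9 in CBPE. It was 3.22-fold higher in IPE than in RPE and 2.56-fold higher than in CBPE. Its other probe sets were dim on the other arrays: 254.7 in IPE, 1.2 in RPE and 1 in CBPE for one, and 64 in IPE, 8.1 in RPE and 0.6 in CBPE for another, so only the IPE signals stood above the floor. Every Txnrd1 probe set was thus highest in IPE.

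Txn1, thioredoxin itself, had 2412 in IPE, 4560 in RPE and 5180 in CBPE. It was 1.89-fold lower in IPE than in RPE and 2.15-fold lower than in CBPE, in the range of signals where the median gene was lower in IPE too. Its log2 difference between IPE and CBPE was -0.36 after quantile normalization and -0.43 with all probe sets averaged, so the call was lost in both. Another Txn1 probe set, near the floor, gave 20.5 in IPE, 26.6 in RPE and 1.9 in CBPE. Txnrd2, the mitochondrial reductase, gave 43.8 in IPE, 27 in RPE and 27.3 in CBPE. Other dim Txnrd2 probe sets differed more. One gave 37.7 in IPE, 8.4 in RPE and 22.9 in CBPE, 2.24-fold higher in IPE than in RPE. Another gave 39.9 in IPE, 24.2 in RPE and 4.7 in CBPE, 2.31-fold higher in IPE than in CBPE. Txnip, which binds and inhibits thioredoxin, gave 475.4 in IPE, 882.5 in RPE and 833.4 in CBPE, and another of its probe sets went the other way, with 225.2 in IPE, 193.9 in RPE and 154.5 in CBPE. By their representing probe sets, Txnrd2 and Txnip stayed under 2-fold.

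Among 12 further thioredoxin-related and methionine repair genes, IPE exceeded RPE at least 2-fold for 2 and fell short of it for 1, and the counts against CBPE were also 2 and 1. These are 16.7% and 8.33% of the list, beside 10.5% and 9.87% of all genes against RPE and 12.5% and 11.8% against CBPE. Nxn, nucleoredoxin, a thioredoxin-like protein, had 1299 in IPE, 202 in RPE and 96.8 in CBPE, 6.43-fold and 13.4-fold higher in IPE. Arrdc4, an arrestin-domain relative of Txnip, had 181.2 in IPE, 59.5 in RPE and 44.2 in CBPE, 3.05-fold and 4.1-fold higher. Txndc5, an endoplasmic reticulum protein with thioredoxin domains, was lower, with 879 in IPE, 2174 in RPE and 2429 in CBPE.

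Among the transcripts of glutathione synthesis and recycling, that of the rate-limiting enzyme's catalytic subunit differed most by representing probe set. Gclc, the catalytic subunit of glutamate-cysteine ligase, had 527.8 in IPE, 165.9 in RPE and 120.8 in CBPE. That made 3.18-fold more signal in IPE than in RPE and 4.37-fold more than in CBPE. Its other probe set gave 462.8 in IPE, 101.9 in RPE and 89.6 in CBPE, 4.54-fold and 5.17-fold higher. Both probe sets of Gclc had the IPE signal far above the other arrays, and the gene stayed at least 2-fold higher in IPE under every alternative tried.

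Gclm, the modifier subunit of the same enzyme, had 368.1 in IPE, 209.2 in RPE and 185.7 in CBPE, 1.76-fold and 1.98-fold higher in IPE and so just under the threshold. Its other probe set gave 193.5 in IPE, 60.5 in RPE and 47.9 in CBPE, 3.2-fold and 4.04-fold higher. The later and recycling steps were close to even by their representing probe sets: Gss, glutathione synthetase, had 110 in IPE, 108.9 in RPE and 98.5 in CBPE. Gsr, glutathione reductase, had 171.1 in IPE, 144.7 in RPE and 129.8 in CBPE. Pgd, the pentose phosphate enzyme that makes NADPH, had 1607 in IPE, 1829 in RPE and 1352 in CBPE. Another Pgd probe set gave 1178 in IPE, 727.8 in RPE and 625.7 in CBPE, 1.62-fold and 1.88-fold higher in IPE. The rest of its probe sets were lower in IPE than in RPE and higher than in CBPE.

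**Figure D3:**
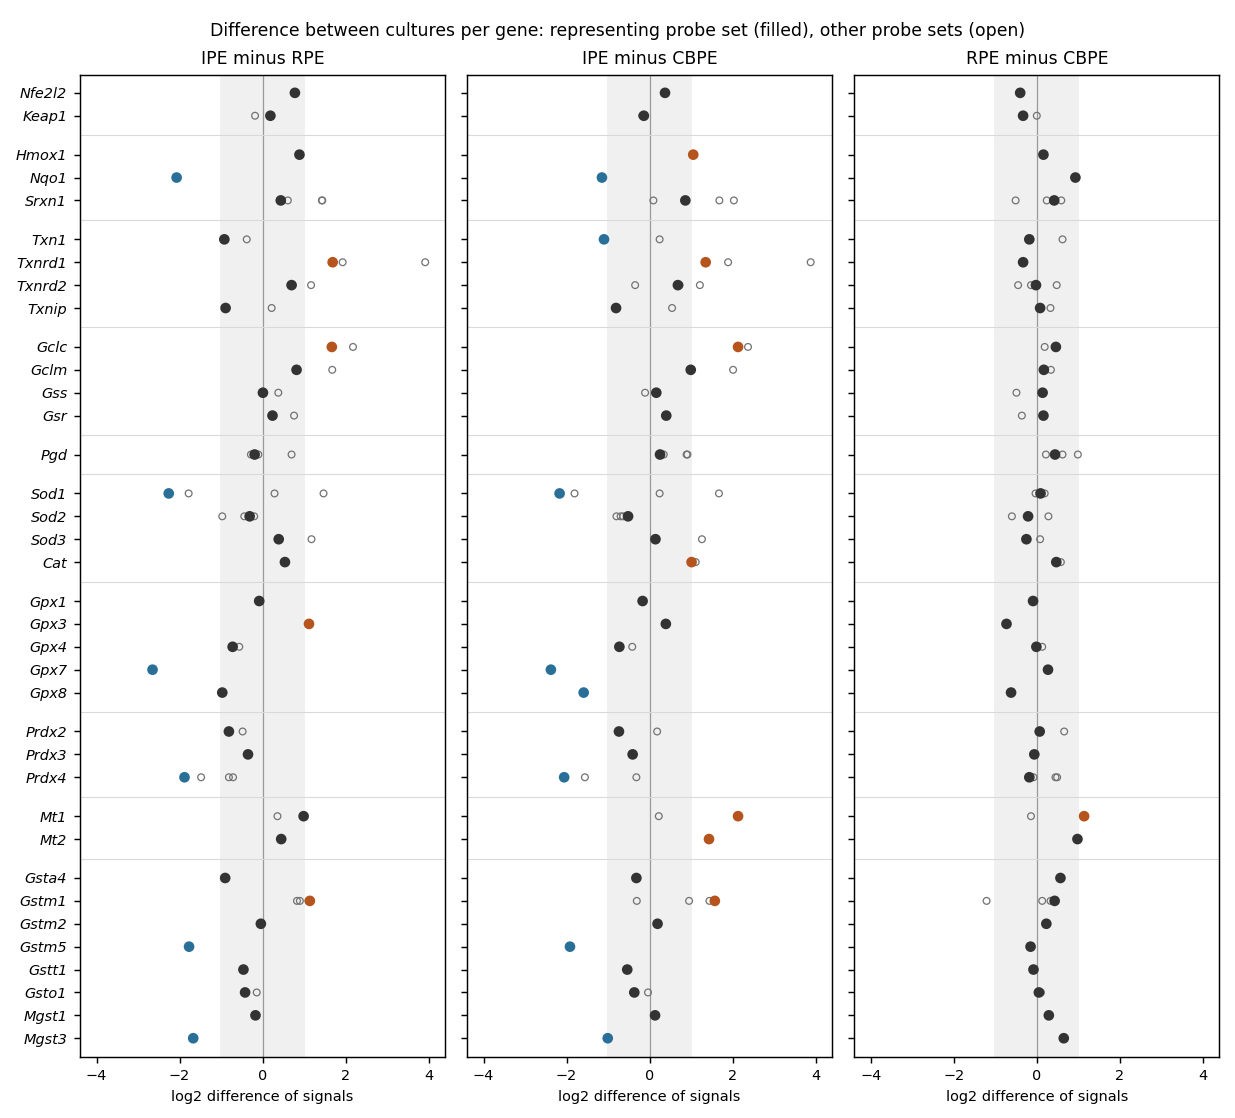
Log2 difference of each measured gene (horizontal axis) for IPE minus RPE, IPE minus CBPE and RPE minus CBPE, by role, with the representing probe set filled and the gene's other probe sets open, and a grey band within 2-fold. The first 2 panels spread to both sides, from Gclc and Txnrd1 on the right to Gpx7 on the left, and the panel of RPE minus CBPE stays almost wholly inside the band.

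Of the 3 dismutases, Sod1 alone reached 2-fold by its representing probe set. Sod1, the cytosolic copper-zinc enzyme, had 890.5 in IPE, 4252 in RPE and 4008 in CBPE. It was 4.78-fold lower in IPE than in RPE and 4.5-fold lower than in CBPE, a larger gap than the median of genes of that brightness. Its probe sets disagreed: another gave 907.4 in IPE, 3106 in RPE and 3180 in CBPE, but a dimmer set gave 138.5 in IPE, 49.9 in RPE and 43.6 in CBPE, 2.78-fold and 3.18-fold higher in IPE. Its remaining probe sets were near or below the floor, at most 20.5 on any array. Averaged over all its probe sets, Sod1 had a log2 difference of -0.5 for IPE minus RPE and -0.46 for IPE minus CBPE, under 2-fold. Sod2, the mitochondrial manganese enzyme, had 1359 in IPE, 1687 in RPE and 1945 in CBPE.

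Sod3, the secreted dismutase, had 909.3 in IPE, 694.8 in RPE and 825.9 in CBPE, and its other probe set 474.8 in IPE, 209.3 in RPE and 197.6 in CBPE (2.27-fold and 2.4-fold higher in IPE). Catalase, the peroxisomal enzyme that splits hydrogen peroxide, was ordered the same way by both of its probe sets. Cat had 1123 in IPE, 771.3 in RPE and 558.5 in CBPE, 1.46-fold and 2.01-fold higher in IPE, and its other probe set gave 865.6 in IPE, 602.3 in RPE and 402.3 in CBPE.

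Of 5 glutathione peroxidases, 1 was higher and 1 lower in IPE against RPE, and 0 were higher and 2 lower against CBPE. For all genes the shares were 10.5% and 9.87% against RPE, and 12.5% and 11.8% against CBPE. Gpx1, the cytosolic selenoenzyme, was close to even, with 3509 in IPE, 3697 in RPE and 3936 in CBPE. Gpx4, which reduces lipid hydroperoxides in membranes, had 3874 in IPE, 6383 in RPE and 6439 in CBPE, and after quantile normalization its IPE minus CBPE log2 difference was 0.24, with the other sign. Both stayed within 2-fold. Gpx3, the secreted peroxidase of plasma, had 1440 in IPE, 661.8 in RPE and 1097 in CBPE, 2.18-fold higher in IPE than in RPE and 1.31-fold higher than in CBPE.

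Both peroxidases of the endoplasmic reticulum were lowest in IPE. Gpx7 had 199 in IPE, 1252 in RPE and 1035 in CBPE, 6.29-fold lower in IPE than in RPE and 5.2-fold lower than in CBPE. Gpx8 had 1567 in IPE, 3073 in RPE and 4723 in CBPE, 1.96-fold and 3.02-fold lower in IPE. After quantile normalization the IPE minus CBPE difference of Gpx8 was -0.99 on the log2 scale, just inside 2-fold.

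Prdx4, the peroxiredoxin of the endoplasmic reticulum, also stood low in IPE. It had 1139 in IPE, 4201 in RPE and 4744 in CBPE, 3.69-fold lower than in RPE and 4.16-fold lower than in CBPE, and its call held under every alternative tried. Other Prdx4 probe sets had the same order against IPE, with 163 in IPE, 453.9 in RPE and 480.2 in CBPE, and 65 in IPE, 114 in RPE and 81 in CBPE. Prdx2, a cytosolic peroxiredoxin, had 1988 in IPE, 3490 in RPE and 3314 in CBPE. Prdx3, the mitochondrial one, had 774 in IPE, 988.8 in RPE and 1031 in CBPE. Both were under 2-fold, and Prdx1, Prdx5 and Prdx6 have no value here for the reason given above.

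The metallothioneins are small cysteine-rich proteins that bind zinc and copper. Both reached 2-fold between IPE and CBPE, neither did between IPE and RPE, and Mt1 alone did between RPE and CBPE. Mt1 had 2842 in IPE, 1432 in RPE and 649.9 in CBPE, so IPE exceeded RPE 1.98-fold and CBPE 4.37-fold, and RPE exceeded CBPE 2.2-fold. Mt2 had 2512 in IPE, 1837 in RPE and 932.7 in CBPE, 1.37-fold, 2.69-fold and 1.97-fold for the same pairs. Both run in the order IPE, RPE, CBPE. Another Mt1 probe set lay close to the floor, with 21.5 in IPE, 9.2 in RPE and 18.5 in CBPE. Read from that probe set alone, Mt1 had a log2 difference of 0.22 for IPE minus CBPE, against 2.13 from the bright set. Mt1 and Mt2 are neighbours and paralogs on chromosome 8, so probes of either may take up transcripts of the other.

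Among 5 further genes of metal response, the 2-fold threshold was passed by 2 upward and 0 downward in IPE against RPE, and by 1 upward and 2 downward against CBPE. Over all genes, 10.5% passed it upward and 9.87% downward against RPE, and 12.5% and 11.8% against CBPE. Slc30a1, a zinc exporter induced by the metal sensor MTF1, had 380.8 in IPE, 102.8 in RPE and 49.5 in CBPE, in the same order as Mt1 and 3.7-fold and 7.69-fold higher in IPE. Mtf1 itself had 96.1 in IPE, 44.2 in RPE and 70.9 in CBPE. Slc39a1, a zinc importer, had 426.2 in IPE, 752.9 in RPE and 1833 in CBPE, and Mt3, the metallothionein first known from brain, had 44.1 in IPE, 64.2 in RPE and 250 in CBPE. Both were lowest in IPE, opposite to Mt1.

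Genes of the mu class of glutathione S-transferases differed in both directions. These enzymes join glutathione to electrophiles, and Gstm5, Gstm2 and Gstm1 lie in that order in the same cluster on chromosome 3, with Gstm7, Gstm6 and Gstm3 between Gstm5 and Gstm2. Gstm1 had 1428 in IPE, 646.1 in RPE and 480.5 in CBPE, 2.21-fold and 2.97-fold higher in IPE. Of its other probe sets, one gave 1213 in IPE, 563.1 in RPE and 448.3 in CBPE, another 146.5 in IPE, 82.6 in RPE and 75.7 in CBPE, and a dim set 46.5 in IPE, 25 in RPE and 57.8 in CBPE. Averaged over all its probe sets, Gstm1 had log2 differences of 0.99 for IPE minus RPE and 0.91 for IPE minus CBPE. With equal medians the IPE minus RPE difference was 0.87, so all 3 values fell under 2-fold. Gstm5 had 970.6 in IPE, 3317 in RPE and 3683 in CBPE, 3.42-fold and 3.79-fold lower in IPE. It was at least 2-fold lower under every alternative, of which only quantile normalization could have removed the call. Gstm2 was close to even, with 1024 in IPE, 1050 in RPE and 895 in CBPE. Transcripts of this family are alike in sequence, so the signal of a probe set may include its relatives.

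Among the other transferases, the membrane enzyme Mgst3 was lower in IPE. Mgst3 had 172.6 in IPE, 548 in RPE and 348.7 in CBPE, 3.17-fold and 2.02-fold lower in IPE, and averaging all its probe sets gave log2 differences of -0.94 and -0.63. The probe set averaged in there was below the floor on all 3 arrays. Mgst1, its relative, had 3605 in IPE, 4042 in RPE and 3302 in CBPE. Gsta4, which conjugates the lipid aldehyde 4-hydroxynonenal, had 1514 in IPE, 2824 in RPE and 1896 in CBPE. Gstt1 had 379.7 in IPE, 520.5 in RPE and 551.7 in CBPE, and Gsto1 765.5 in IPE, 1025 in RPE and 989.4 in CBPE. These 4 stayed within 2-fold in each comparison.

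Among 21 further glutathione enzymes, 19 were measured against RPE and 18 against CBPE. IPE was 2-fold or more above RPE for 1 of these and below it for 2, and above CBPE for 1 and below it for 4. The shares of all genes were 10.5% and 9.87% against RPE, and 12.5% and 11.8% against CBPE. Chac1, which degrades glutathione and is a target of the ATF4 stress response, had 18.9 in IPE, close to the floor, against 196.4 in RPE and 320.5 in CBPE. Gstk1, a kappa-class transferase, had 141.3 in IPE, 282.2 in RPE and 318.8 in CBPE. Glrx2, the mitochondrial glutaredoxin, had 181 in IPE, 305.1 in RPE and 388.3 in CBPE. All 3 were lowest in IPE. Mgst2 had 76.5 in IPE, 109.8 in RPE and 53.3 in CBPE. It was the 1 gene of this list for which RPE exceeded CBPE 2-fold (5.56%, beside 3.75% of all genes).

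Further genes of the NRF2 pathway were mixed as well. Of 8 measured partners and repressors, IPE was 2-fold or more above RPE for 1 and below it for 0, and above CBPE for 3 and below it for 1. Shares over all genes were 10.5% and 9.87% against RPE, and 12.5% and 11.8% against CBPE. Sqstm1, the autophagy receptor p62 that binds KEAP1, had 2624 in IPE, 1611 in RPE and 1133 in CBPE. Cul3, the ubiquitin ligase scaffold that acts with KEAP1, had 581 in IPE, 308.4 in RPE and 228.3 in CBPE. Bach1, a repressor at the same DNA elements, had 346.8 in IPE, 202.7 in RPE and 124.4 in CBPE. All 3 were highest in IPE. The small MAF gene Mafg had 81.7 in IPE, 145.3 in RPE and 177.5 in CBPE.

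Of 16 other measured NRF2 targets, 1 passed the threshold upward and 4 downward in IPE against RPE, and 1 upward and 2 downward against CBPE. Beside these stand 10.5% and 9.87% of all genes against RPE, and 12.5% and 11.8% against CBPE. Abcc4, a transporter that exports conjugates and nucleotides, had 535.9 in IPE, 134.2 in RPE and 95.2 in CBPE, 3.99-fold and 5.63-fold higher in IPE. Idh1, the cytosolic NADPH-making isocitrate dehydrogenase, had 780.6 in IPE, 1856 in RPE and 1454 in CBPE. Cbr3, a carbonyl reductase, had 226.1 in IPE, 674.5 in RPE and 278.2 in CBPE, and biliverdin reductase B (Blvrb) had 274.7 in IPE, 366.1 in RPE and 166.8 in CBPE. Between RPE and CBPE, 3 of the 16 were higher in RPE and 0 lower (3.75% and 4.26% of all genes).

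Between RPE and CBPE, Mt1 was the only one of the 36 genes to reach 2-fold, and 21 genes had a higher signal in RPE while 15 had a higher one in CBPE. Over all genes tested, 6390 were higher in RPE and 6441 in CBPE, whatever the size of the difference. Below Mt1 came Mt2 (1.97-fold higher in RPE), Nqo1 (1.9-fold) and Mgst3 (1.57-fold), and Gpx3 was 1.66-fold lower in RPE. The genes just past the threshold elsewhere were Cat (2.01-fold), Mgst3 (2.02-fold) and Hmox1 (2.07-fold), all between IPE and CBPE. Those just short of it were Gpx8 (1.96-fold) and Mt1 (1.98-fold) between IPE and RPE and Gclm (1.98-fold) between IPE and CBPE. Of the 26 calls over the 3 comparisons, 10 exceeded 2-fold by less than the standard deviation between probe sets: Hmox1, Nqo1, Txn1, Txnrd1, Cat, Mt2 and Mgst3 for IPE minus CBPE, Gpx3 and Gstm1 for IPE minus RPE, and Mt1 for RPE minus CBPE.

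**Figure D4:**
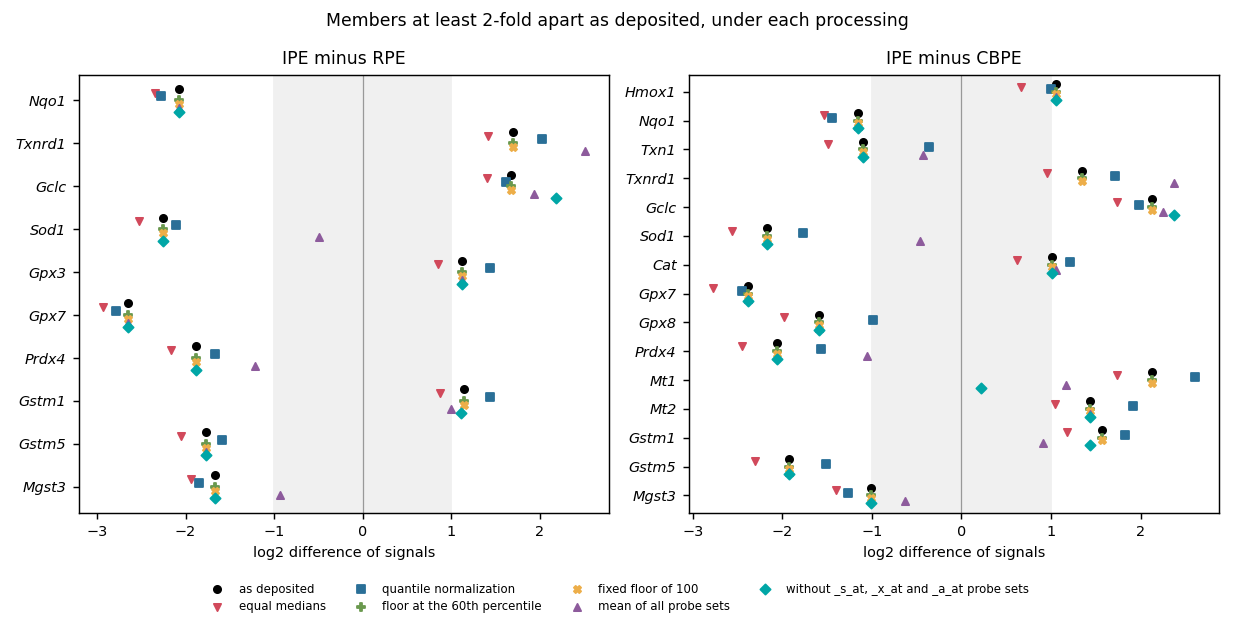
Log2 difference of the genes with at least a 2-fold difference between IPE and RPE or between IPE and CBPE (horizontal axis) under 7 processing settings, 1 marker for each setting. Gpx7, Gstm5, Prdx4, Nqo1 and Gclc keep all their markers outside 2-fold, while Sod1 comes inside it with the mean of all probe sets and Txnrd1 between IPE and CBPE comes just inside it with equal medians.

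Of the 26 calls, 12 stayed at least 2-fold under each alternative scaling, normalization, floor and choice of probe sets that gave a value: Nqo1, Gclc, Gpx7, Prdx4 and Gstm5 against both other cultures, Txnrd1 against RPE and Mt2 against CBPE. Txnrd1 has no probe set left when those whose names mark possible matches to several transcripts are dropped, so its call could not be checked there. Hmox1, Nqo1, Gpx3, Gpx7, Gpx8, Mt2 and Gstm5 have a single probe set each, so the choice of probe sets could not alter them. The other floors could not remove the 12 kept calls, whose representing signals exceeded 100 on both arrays compared. Equal medians lowered IPE against the other arrays, so that setting could only widen the calls lower in IPE. For Nqo1, Gpx7 and Gstm5, quantile normalization was therefore the only alternative that could have removed the call. With equal medians the log2 difference of Txnrd1 between IPE and CBPE was 0.96, that of Hmox1 0.66 and that of Cat 0.62, and Gpx3 between IPE and RPE gave 0.85.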

How the data were processed

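For each array the authors deposited a linear intensity for 45101 probe sets, 64 of them controls. Which software and summary method made them is not given in the sources used here. Each array had a 2% trimmed mean of 100.001, and values were used on that scale. Probe sets were named from the platform annotation, updated through gene ID to RefSeq (GRCm38.p6): 34958 named 1 gene and 932 named several and were not used for a gene. Values under the floor were raised to it, and log2 differences and folds were computed from these with pandas 2.3.3 and numpy 2.4.6. The number of arrays limits the precision: 1 per culture gives no replicate error. The genes and lists were chosen with earlier results of these data known. Genes reaching 2-fold in any comparison, and Nfe2l2, Keap1, Txnrd1, Sod1, Cat, Gpx1 and Prdx1, were described in full. Of each further list, up to 4 genes with a 2-fold difference were named, by mean signal. Alternatives changed scaling, normalization, floor, probe-set rule and fold threshold.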

Additional observations from a re-analysis of the deposited data

How the results depend on the processing

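No paired analysis was possible because each culture had 1 array. With arrays scaled to equal medians, the members' median difference was -0.39 for IPE minus RPE and -0.40 for IPE minus CBPE. Then 2 members were higher and 11 lower in IPE against RPE (6.12% and 16.8% of all genes), and 4 higher and 11 lower against CBPE (6.55% and 23.3%). Averaging a gene's probe sets, IPE was lower than CBPE for 5 and RPE higher than CBPE for 0 (8.38% and 2.08% of all genes). Without probe sets whose names mark matches to several transcripts, 31 members were measured. Of these, 0 were higher in RPE than in CBPE (4.12% of all genes). Mt1 then rested on a dim probe set, and its RPE minus CBPE log2 difference turned to -0.14 and its IPE minus CBPE difference was 0.22. At 1.5-fold, 9 members were higher and 12 lower in IPE than in RPE (22.2% and 21.7% of all genes), and RPE was higher than CBPE for 4 and lower for 2 (12.7% and 13.4%). At 3-fold, 2 were higher and 6 lower in IPE than in RPE (3.47% and 3.12% of all genes). Against CBPE, 2 were higher and 5 lower in IPE (4.82% and 4.24%), and 0 were higher in RPE than in CBPE (0.731%). The 1.5-fold and 3-fold counts follow from the threshold itself, and the cause of the others was not tested. Of 630 differences of single members under the alternatives, 40 took the other sign. In 39 of these the member was within 2-fold on the deposited scale, and the remaining 1 was that of Mt1. Signals near the floor limit the dim genes, and Txnrd2 had no value with a fixed floor of 100.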

Other observations

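Genes for selenium handling include those that supply the selenocysteine of Txnrd1, Gpx1, Gpx3 and Gpx4. Of 7 measured, IPE was 2-fold or more above RPE for 0 and below it for 1 (14.3%, against 9.87% of all genes), and 0 passed 2-fold in either direction between IPE and CBPE or between RPE and CBPE. The 1 gene was Selenom, a selenoprotein of the endoplasmic reticulum, with a signal of 999.8 in IPE, 2388 in RPE and 1976 in CBPE.

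Among sources of superoxide and peroxide, 6 genes were tested against RPE and 7 against CBPE. At least 2-fold higher in IPE were 1 against RPE (16.7%, beside 10.5% of all genes) and 2 against CBPE (28.6%, beside 12.5%). Aox3, an aldehyde oxidase, had a signal of 1000 in IPE, 20.2 in RPE and 27.5 in CBPE, so the signals of RPE and CBPE lay near the floor. Nox4, the NADPH oxidase that releases hydrogen peroxide, had 129.6 in IPE, 94.4 in RPE and 51.8 in CBPE. None of the tested genes of this list was at least 2-fold lower in IPE (9.87% of all genes against RPE and 11.8% against CBPE). Skeletal muscle and glial markers also differed between these arrays, with summed signals given above, and their part in these values was not tested.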
